A study of Mus musculus with 5 samples.

Results

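Ppy, Pyy and Npy, the genes of the pancreatic polypeptide family, were followed through the single-cell RNA of hand-picked islets from 5 mice of the strain NOD.Cg-Prkdcscid/J (NOD.SCID). The 3 genes were chosen by name out of the 32285 genes counted in each library, and all 3 had transcripts in every mouse. HC mice 1 and 2, aged 7 and 9 weeks, ate a 20% hydrolyzed casein (HC) diet. Chow mice 1, 2 and 3, aged 8, 10 and 10 weeks, ate standard chow. Both groups carry the scid mutation of Prkdc, which leaves mice without mature T and B cells. The title of HC mouse 2 calls it chow-fed, whereas its diet label gives HC and the series counts 2 HC and 3 chow mice, so it was kept as HC. Library names begin with FUN (HC mouse 1, chow mouse 1) or SKY (HC mouse 2, chow mice 2 and 3), and the labels do not say what this prefix marks.

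The family takes its name from peptides with a shared hairpin fold and an amidated C-terminal end. Pancreatic polypeptide, the product of Ppy, is the hormone of the PP cells of the islet and acts mainly through the receptor encoded by Npy4r. Peptide YY, from Pyy, is best known from the L cells of the gut and is also made in the mouse islet. Neuropeptide Y, from Npy, is mainly a transmitter of brain and sympathetic neurons, acts through several Y receptors, and lowers insulin secretion when applied to islets. All of them are cut from longer precursors by prohormone convertases and amidated by the enzyme encoded by Pam.

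Ppy and Pyy are neighbours on the minus strand of mouse chromosome 11 in the GRCm38 build, at chr11:102099930-102101319 and chr11:102106676-102107832. They are separated by 5356 bases with 0 annotated genes between them. Npy lies on the plus strand of chromosome 6, at chr6:49822710-49829507. The coding stretch of each mature peptide is shown to let the relatedness of the members be seen. It runs over exons 2 and 3 in each gene, covers 108 bases, and is printed from the GENCODE transcripts with the bases shared by all 3 genes in capitals.
Ppy: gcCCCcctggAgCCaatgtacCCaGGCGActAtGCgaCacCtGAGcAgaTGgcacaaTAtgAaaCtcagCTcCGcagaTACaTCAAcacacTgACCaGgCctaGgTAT
Pyy: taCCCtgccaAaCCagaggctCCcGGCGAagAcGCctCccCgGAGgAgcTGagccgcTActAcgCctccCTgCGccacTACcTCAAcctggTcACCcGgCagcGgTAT
Npy: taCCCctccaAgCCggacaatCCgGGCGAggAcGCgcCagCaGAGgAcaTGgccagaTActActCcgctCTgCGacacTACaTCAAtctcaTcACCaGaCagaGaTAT
Of the 108 bases, 49 were the same in all 3 genes. Translated, Pyy and Npy shared 24 of 36 residues, Ppy and Npy shared 18, and the chromosomal neighbours Ppy and Pyy shared 16.

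The 100 bases upstream of each start site are shown because Ppy and Pyy were high in the same cell types and mice. They are RefSeq promoters of GRCm38.p6, at chr11:102101320-102101419 on the minus strand for Ppy, chr11:102107833-102107932 on the minus strand for Pyy and chr6:49822610-49822709 on the plus strand for Npy. The letters TATAA or ATAAA were searched on both strands in the last 50 bases, and matches, overlapping ones joined, are in capitals.
Ppy: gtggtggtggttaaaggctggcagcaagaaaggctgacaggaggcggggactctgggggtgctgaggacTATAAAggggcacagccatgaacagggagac
Pyy: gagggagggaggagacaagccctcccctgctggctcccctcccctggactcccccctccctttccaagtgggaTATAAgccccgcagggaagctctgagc
Npy: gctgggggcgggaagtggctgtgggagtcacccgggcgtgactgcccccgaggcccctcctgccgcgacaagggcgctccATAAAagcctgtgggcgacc
Every printed stretch held a match on the printed strand, beginning 31 bases upstream in Ppy, 27 in Pyy and 20 in Npy. Pyy has 2 promoter entries, and only the first is shown and described here. Of 32851 mouse promoters in the same table, 12.73% held a match in this window. The match is a description of these letters only.

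The libraries held 28722244 to 39624978 UMIs (unique molecular identifiers, 1 for each captured transcript) in 4452 to 6087 barcodes, and 22758 cells were kept. Pairs of libraries shared 4 to 14 barcodes. The cells fell into 16 clusters. Beta cells (8686 cells in 3 clusters, with insulin), alpha cells (5018 cells with Gcg and Ttr), delta cells (1996 cells with Sst and Hhex), macrophages, endothelial, stromal and ductal cells were named by their markers. The cluster led by Ppy and Pyy (651 cells, called the Ppy-rich cluster here) was not named as PP cells, since markers of another cell type stood beside Ppy, Pyy and Tspan8 among its 10 leading genes. Other unnamed clusters are called by their 2 leading genes.

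Ppy and Pyy had their highest medians over the 5 mice in the Ppy-rich cluster. They were also abundant in the summed UMIs of alpha and delta cells, while Npy was mainly a beta cell transcript among the named endocrine types. The median alpha cell had only 0.0 to 0.0321% of its UMIs from Ppy over the 5 mice, and the median delta cell 0.0 to 0.0426%. The Ppy sums of these types thus came mostly from a part of their cells. In the Ppy-rich cluster the median cell had 0.0 to 28.0% of its UMIs from Ppy, with a middle value of 0.0244% over the 5 mice. Its Ppy sums thus also rested on a part of its cells in some mice. Levels are given in CPM, the share of a gene in the UMIs summed over the cells of a type in each mouse, and 3 prime UMIs need no scaling by gene length. The Ppy level in the Ppy-rich cluster was 13630 and 162023 CPM in HC mice 1 and 2, and 16524, 154221 and 213766 CPM in chow mice 1, 2 and 3. In alpha cells the Ppy level was 3559 and 19633 CPM in the HC mice, and 1838, 28716 and 35827 CPM in the chow mice. In both, the 3 SKY mice lay above the 2 FUN mice, and the diet groups overlapped.

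**Figure D1:**
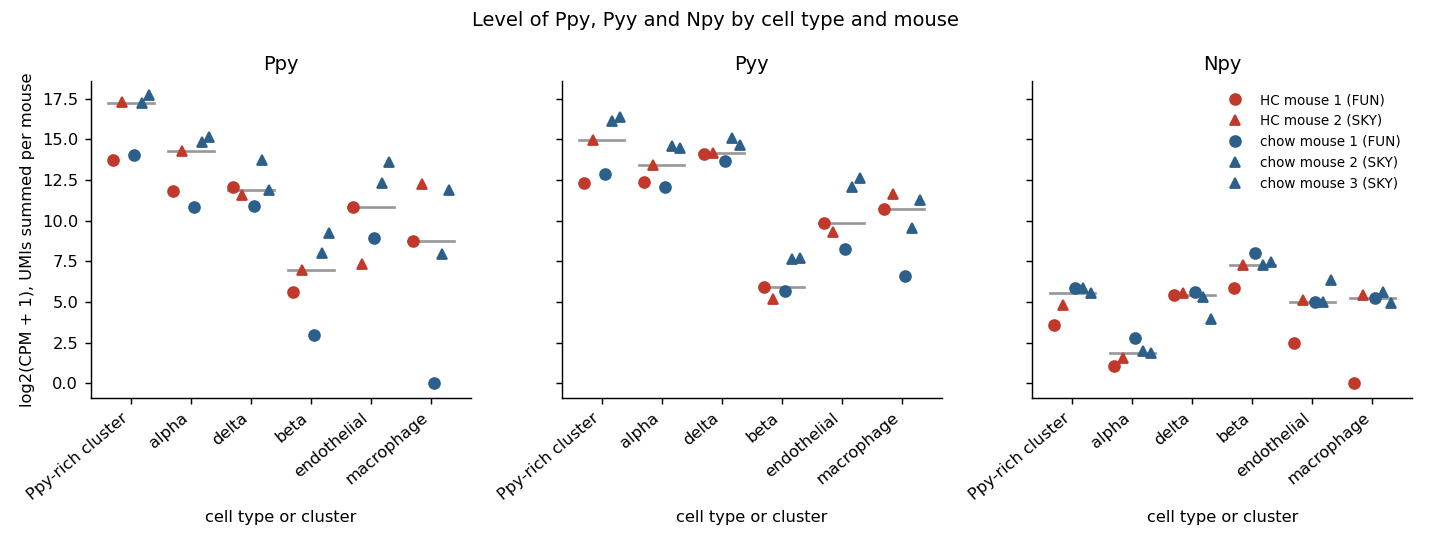
Level of Ppy, Pyy and Npy, as log2(CPM + 1) of the UMIs summed per mouse, in 6 cell types or clusters. Each point is 1 mouse (red HC, blue chow, circles FUN, triangles SKY) and the grey line is the median of 5 mice. Ppy and Pyy are high in the Ppy-rich cluster, alpha and delta cells, and Npy is high in beta cells and lowest in alpha cells.

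The Ppy level in delta cells was 4272 and 3106 CPM in HC mice 1 and 2, and 1888, 13543 and 3749 CPM in chow mice 1, 2 and 3. In beta cells it was 47.6 and 124 CPM in the HC mice, and 6.89, 253 and 616 CPM in the chow mice. The order by median ran from the Ppy-rich cluster (154221 CPM) through the Sst+Ly6h cluster (27139 CPM), which also carried insulin, and alpha cells (19633 CPM) to delta cells (3749 CPM) and beta cells (124 CPM). Every neighbouring pair in the order over all 13 types and clusters had overlapping ranges over the 5 mice, for each of the 3 genes. Ppy also reached a median of 1815 CPM in endothelial cells, a type that does not make the hormone. Droplets with RNA of several types remained among these cells. Without the cells that held another islet hormone, the endothelial Ppy level was 20.1 and 68.5 CPM in HC mice 1 and 2, and 7.15, 6898 and 42141 CPM in chow mice 1, 2 and 3. The last 2 values include 2 Ppy-high cells each.

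The Pyy level in the Ppy-rich cluster was 5204 and 31523 CPM in HC mice 1 and 2, and 7465, 71993 and 84079 CPM in chow mice 1, 2 and 3. In delta cells it was 17691 and 18599 CPM in the HC mice, and 12872, 34091 and 26304 CPM in the chow mice. The cluster lay above delta cells in the 3 SKY mice and below them in the 2 FUN mice. In alpha cells it was 5304 and 11085 CPM in the HC mice, and 4302, 24441 and 23099 CPM in the chow mice. Chow mouse 1 had the lowest Pyy level in delta and alpha cells, and chow mice 2 and 3 had the highest, with both HC mice between them. In beta cells the Pyy level was 59.5 and 35.0 CPM in the HC mice, and 49.4, 201 and 203 CPM in the chow mice.

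The Npy level in beta cells was 57.0 and 157 CPM in HC mice 1 and 2, and 254, 156 and 176 CPM in chow mice 1, 2 and 3. HC mouse 1 was the lowest and HC mouse 2 lay within the chow range. Delta cells had 14.7 to 48.8 CPM of Npy, and alpha cells had 1.10 to 5.74 CPM, from 6 to 23 UMIs a mouse. Only the Ube2c+Stmn1 cluster, which carried cell cycle genes and insulin, and the Fabp7+Sostdc1 cluster had a higher median than beta cells, at 304 and 284 CPM.

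Cells rich in Ppy were few, although at least 1 Ppy UMI was found in 12.3% (chow mouse 1) to 65.9% (chow mouse 2) of kept cells. A cell with at least 1% of its UMIs from Ppy was counted as Ppy-high, a range of a value and not a cell type, and 1202 kept cells met it. They were 146 of 4821 cells in HC mouse 1 and 219 of 4413 in HC mouse 2, and 65 of 3656, 405 of 5122 and 367 of 4746 cells in chow mice 1, 2 and 3. The shares averaged 3.996% ± 1.37 in HC mice and 5.81% ± 3.49 in chow mice (SD, n = 2 and 3), a difference of -1.81 points (two-sided exact permutation test, p = 0.6). With 10 possible splits of 5 mice, 0.1 is the smallest p this test can give. The 3 SKY mice lay above the 2 FUN mice, with 6.87% ± 1.65 and 2.40% ± 0.884 (SD, n = 3 and 2), a difference of 4.46 points (exact permutation test, p = 0.2).

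The spread between mice lay in the cells richest in Ppy. Cells with 1 to 5% of their UMIs from Ppy were 2.18% and 2.22% of kept cells in HC mice 1 and 2, and 1.29%, 2.32% and 2.30% in chow mice 1, 2 and 3. Cells with 10% or more were 0.477% and 2.49% of kept cells in the HC mice, and 0.301%, 4.65% and 4.70% in the chow mice. Of these richest cells, 23 and 110 came from the HC mice, and 11, 238 and 223 from the chow mice. In this band the difference between HC and chow was -1.73 points (exact p = 0.6), and that between SKY and FUN was 3.56 points (exact p = 0.2).

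**Figure D2:**
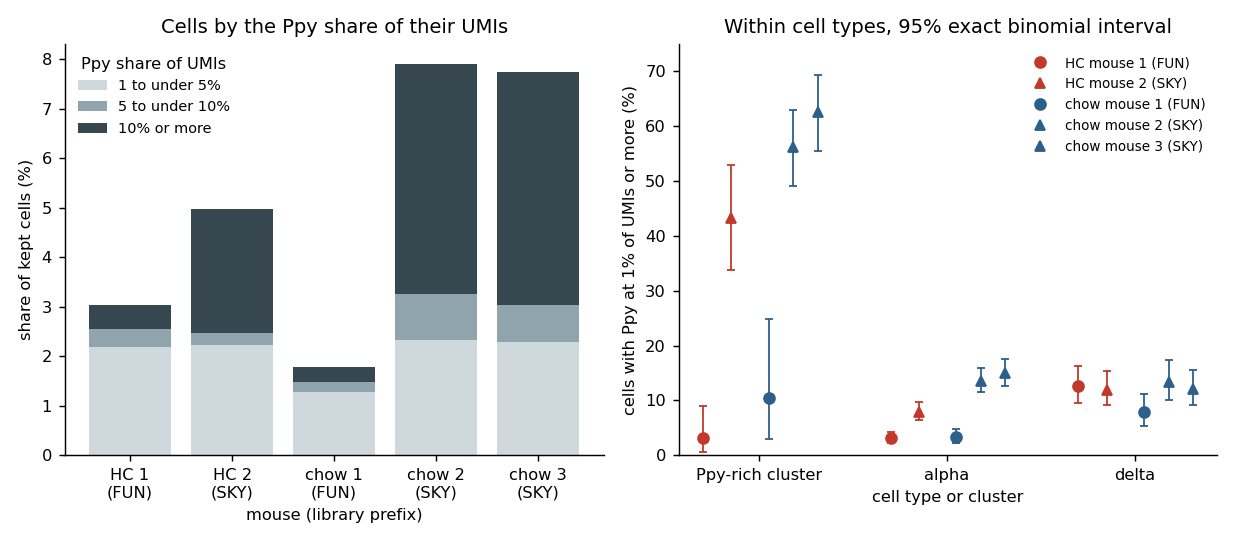
Left, the share of kept cells (%) in 3 bands of the Ppy share of a cell's UMIs, stacked, for each mouse. Right, the share of cells (%) with Ppy at 1% of UMIs or more within the Ppy-rich cluster, alpha and delta cells, 1 point a mouse with its 95% exact binomial interval. The band at 10% or more is under 0.5% of cells in both FUN mice, and the delta cell shares stay between 7.89% and 13.4%.

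The richest cells and the 1 to 10% cells sat in different places. Of the 605 cells with 10% or more, 272 were in the Ppy-rich cluster, 213 in the clusters named alpha and 6 in the delta cluster. Of the 597 cells with 1 to 10%, 227 were delta cells, 202 alpha cells and 113 in the Sst+Ly6h cluster. At 10% or more, 603 of 605 cells also had at least 1% of their UMIs from Pyy, and 308 held no other islet hormone (Gcg or Sst at 1% or more, or insulin at 5% or more). Glucagon (Gcg) reached 1% in 199 of the 605 cells, fewer than the 213 in the alpha clusters. Some of those 213 therefore had less Gcg than that. Their part in the Ppy levels and Ppy-high shares of alpha cells was not tested. At 1 to 10%, Sst reached 1% in 350 of the 597 cells and 12 held no other hormone.

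Within delta cells the Ppy-high share lay between 7.89% and 13.4% in the 5 mice. It was 52 of 411 and 53 of 442 cells in HC mice 1 and 2, and 28 of 355, 48 of 358 and 52 of 430 cells in chow mice 1, 2 and 3. These shares averaged 12.3% ± 0.468 in HC mice and 11.1% ± 2.88 in chow mice (SD, n = 2 and 3), 1.19 points apart (exact permutation test, p = 0.9). Within alpha cells the share was 3.09% and 7.96% in the HC mice, and 3.35%, 13.6% and 14.97% in the chow mice, a difference of -5.11 points (exact p = 0.3). The 2 FUN mice had the lowest alpha cell shares on either diet.

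The cluster held 2.23% ± 0.400 of kept cells in HC mice and 3.10% ± 1.79 in chow mice (SD, n = 2 and 3), a difference of -0.87 points (exact permutation test, p = 0.6). Ppy and Pyy were not among the genes used for clustering. With Npy, the only member used, left out, 2 clusters had Ppy among their leading genes, and their summed share differed by 0.236 points (exact p = 0.9). The mix of cells in the Ppy-rich cluster differed between mice. Ppy-high cells were 3 of its 94 cells in HC mouse 1 and 48 of 111 in HC mouse 2, and 4 of 38, 118 of 210 and 124 of 198 in chow mice 1, 2 and 3. Insulin reached 5% of UMIs in 79.8% and 45.9% of its cells in the HC mice, and in 89.5%, 47.1% and 35.4% in the chow mice. In all, 281 of the 651 cells had that much insulin and no high Ppy. The 2 mice with the highest insulin shares, both FUN, had the lowest Ppy levels in the cluster, and the part of the insulin-containing droplets in those levels was not tested.

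Pyy was a general transcript of delta cells, unlike Ppy. After each cell was thinned to 2000 UMIs, 99.6% of 1497 delta cells (1491 cells, 95% exact binomial interval 99.1 to 99.9%) had at least 1 Pyy UMI. The median delta cell had 1.68% and 1.67% of its UMIs from Pyy in HC mice 1 and 2, and 1.15%, 2.83% and 2.25% in chow mice 1, 2 and 3. The median alpha cell had 0.236% and 0.377% in the HC mice, and 0.127%, 0.555% and 0.378% in the chow mice. At the same depth of 2000 UMIs, 85.8% of 4684 alpha cells and 27.0% of 315 endothelial cells had a Pyy UMI. Those 315 are the deepest of 957 endothelial cells, whose median was 1412 UMIs, and they include droplets with islet hormones. Without the cells that held another hormone, the endothelial Pyy level was 16.7 and 16.4 CPM in the HC mice, and 25.0, 4083 and 14132 CPM in the chow mice, so the endothelial share is not a measure of free RNA alone.

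**Figure D3:**
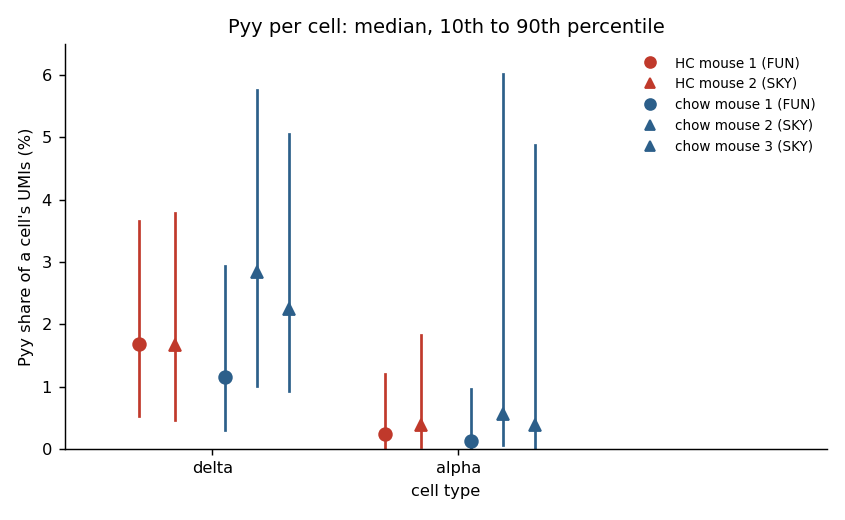
Pyy share of a cell's UMIs (%) in delta and alpha cells, with the median cell as a point and the 10th to 90th percentile as a line, 1 for each mouse. The delta cell medians lie between 1.15% and 2.83%, and every alpha cell median is under 0.6%.

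Delta cells had Pyy whether or not they were Ppy-high. In delta cells that were not Ppy-high, the median Pyy share was 1.63% and 1.57% in HC mice 1 and 2, and 1.12%, 2.58% and 2.00% in chow mice 1, 2 and 3. In Ppy-high delta cells it was 2.14% and 2.16% in the HC mice, and 1.72%, 3.69% and 3.47% in the chow mice. The Ppy-high cells were the higher of the pair in each of the 5 mice. Cells of the alpha clusters that were not Ppy-high had a median Pyy share of 0.118 to 0.447% over the mice, against 1.42 to 8.17% in the Ppy-high ones. The median Ppy share of these Ppy-high cells was 4.30% and 11.2% in the HC mice, and 1.90%, 14.7% and 11.5% in the chow mice. Some cells this rich in Ppy in the alpha clusters had little Gcg, and their part in this Pyy contrast was not tested.

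The ratio of Pyy to Ppy UMIs was higher in delta than in alpha cells in each of the 5 mice. Over all delta cells it was 4.14 and 5.99 in HC mice 1 and 2, and 6.82, 2.52 and 7.02 in chow mice 1, 2 and 3. Over all alpha cells it was 1.49 and 0.565 in the HC mice, and 2.34, 0.851 and 0.645 in the chow mice. Beta cells had 1.25 and 0.282 in the HC mice, and 7.18, 0.795 and 0.329 in the chow mice, below alpha cells in all but chow mouse 1. The ratio was also taken over cells with under 0.1% of their UMIs from Ppy, a limit that itself lowers the Ppy count. There delta cells had 21.4 and 42.4 Pyy UMIs to each Ppy UMI in HC mice 1 and 2, and 50.1, 39.5 and 43.1 in chow mice 1, 2 and 3. In alpha cells this ratio was 12.9 and 16.5 in the HC mice, and 20.8, 14.1 and 17.1 in the chow mice. In beta cells it was 1.60 and 0.501 in the HC mice, and 7.18, 1.11 and 0.677 in the chow mice.

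Ppy and Pyy were found together in the endocrine types that hold them, and also in some endothelial cells. At 2000 UMIs, both had a UMI in 29.2% of 4684 alpha cells, where the product of the single shares was 26.3%, and in 55.6% of 624 cells of the Ppy-rich cluster, with a product of 47.4%. In delta cells both were found in 33.8%, with a product of 33.7% and Pyy in nearly all of them. In beta cells Ppy had a UMI in 11.4% and Pyy in 8.18% of 8645 cells, with or without the other. In endothelial cells at the same depth these shares were 15.6% and 27.0%. Ins2 took 473260 to 486744 CPM in the beta clusters and 136693 CPM in endothelial cells. Fewer UMIs were thus left for other genes in beta cells, both at 2000 UMIs and in CPM. The part of free RNA and mixed droplets in the Ppy and Pyy shares was not tested. Both were found in 1.62% of beta cells and in 10.2% of endothelial cells, each above the product of its single shares. A share above the product was thus not particular to the types that hold Ppy and Pyy. These shares pool the 5 mice, and the thinned Ppy share of delta cells by mouse was 27.7% and 28.5% in the HC mice, and 20.1%, 56.7% and 39.8% in the chow mice.

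Npy marked a minority of beta cells. At 2000 UMIs, an Npy UMI was found in 5.07% of 1518 and 11.8% of 1477 beta cells of HC mice 1 and 2, and in 16.7% of 887, 15.02% of 2404 and 15.2% of 2359 beta cells of chow mice 1, 2 and 3. The 95% exact binomial intervals ran from 4.02 to 6.30% and 10.2 to 13.5% in the HC mice, and over the chow mice from 13.6 to 19.3%. Both HC mice lay below the 3 chow mice. The means were 8.43% ± 4.74 in HC mice and 15.6% ± 0.911 in chow mice (SD, n = 2 and 3), a difference of -7.21 points, with p = 0.1, the smallest the exact permutation test can give. The difference was -4.85 points at 1000 UMIs and -10.3 points at 4000 UMIs, with the same p, though all depths thin cells of the same mice. Without thinning, the share of beta cells with Npy at 0.01% of UMIs or more differed by -11.2 points (exact permutation test, p = 0.1). At 0.1% or more the difference was -2.07 points (exact p = 0.3), and HC mouse 2 at 3.52% lay above chow mouse 2 at 3.40%.

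**Figure D4:**
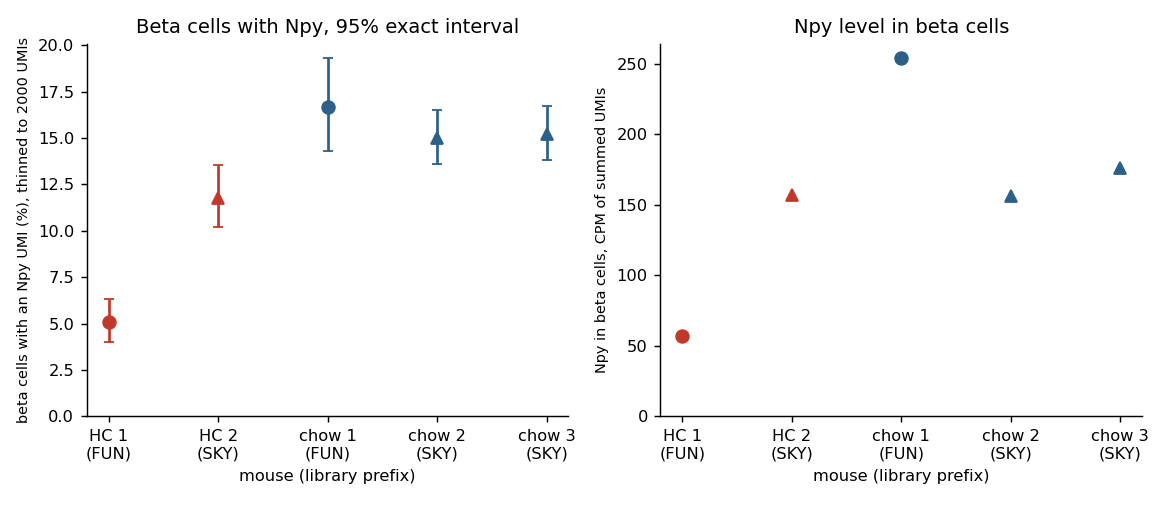
Left, beta cells with at least 1 Npy UMI (%) after thinning to 2000 UMIs a cell, with 95% exact binomial intervals. Right, the Npy level in beta cells in CPM of summed UMIs. Each point is 1 mouse, and the axes start at 0. The detected share separates HC from chow mice, and the summed level does not, since HC mouse 2 at 157 CPM lies above chow mouse 2 at 156 CPM.

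The same share was taken in other types. At 2000 UMIs an Npy UMI was found in 0.406% of 4684 alpha cells, 3.61% of delta cells and 3.49% of endothelial cells, against 12.9% of beta cells over all mice. Between SKY and FUN mice the beta cell share was 14.0% ± 1.93 and 10.9% ± 8.21 (SD, n = 3 and 2, exact permutation test, p = 0.7), and the 2 FUN mice held the lowest share, in HC mouse 1, and the highest, in chow mouse 1. The share of alpha cells with Ppy at 2000 UMIs went with prefix instead, at 41.7% ± 10.6 in SKY mice and 15.1% ± 4.74 in FUN mice (exact p = 0.1). For HC against chow that alpha cell share was 24.9% ± 9.16 and 35.1% ± 21.1 (exact p = 0.5).

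A small part of the beta cells carried most of the Npy. The 10% of beta cells with the most Npy UMIs held 93.5% and 84.9% of all beta cell Npy in HC mice 1 and 2, and 78.4%, 73.0% and 77.2% in chow mice 1, 2 and 3. Without thinning, any Npy UMI was found in 12.9% and 22.9% of beta cells in the HC mice, and in 30.9%, 30.1% and 28.0% in the chow mice. Where few cells have any Npy UMI, the top 10% must hold a large part. At least 10 Npy UMIs were found in 0.788% and 4.67% of beta cells in the HC mice, and in 7.41%, 4.69% and 3.96% in the chow mice. Npy was among the leading genes of 2 of the 3 beta clusters, so their contrast is only a description. In the cluster led by Car15 and Npy the level was 79.5 and 284 CPM in the HC mice, and 456, 258 and 281 CPM in the chow mice. In the cluster led by Hspa1b and Nkx6-1 it was 26.1 and 41.6 CPM in the HC mice, and 150, 84.9 and 64.4 CPM in the chow mice. HC mouse 1 was lowest and chow mouse 1 highest in each of the 3 clusters.

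No member passed the test for diet in any cell type. HC was compared with chow by edgeR's quasi-likelihood test on UMIs summed per mouse and type, with Benjamini-Hochberg adjustment over all genes tested. In beta cells, where 0.0344% of 11613 genes were called at an adjusted p under 0.05, the log2 change of HC over chow was -1.85 ± 2.04 for Ppy (SE, adjusted p = 0.984), -1.85 ± 0.929 for Pyy (0.947) and -0.84 ± 0.647 for Npy (0.955). In alpha cells, with 0.0552% of 10875 genes called, it was -1.04 ± 1.68 for Ppy (edgeR adjusted p = 0.934), -1.18 ± 1.04 for Pyy (0.870) and -1.43 ± 0.483 for Npy (0.673). Alpha cell Npy rests on 6 and 9 UMIs in HC mice 1 and 2, and on 23, 13 and 9 UMIs in chow mice 1, 2 and 3.

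In delta cells, with 0.0% of 8830 genes called by edgeR, 330 at an unadjusted p under 0.05 and 0 by DESeq2, the log2 change was -0.79 ± 1.08 for Ppy, -0.43 ± 0.506 for Pyy and 0.33 ± 0.353 for Npy (adjusted p = 0.999 for each). In the Ppy-rich cluster 0.0% of 5614 genes were called by edgeR, 274 at an unadjusted p under 0.05 and 0 by DESeq2. There the change was -0.66 ± 1.60 for Ppy (edgeR adjusted p = 0.999), -1.69 ± 1.48 for Pyy (0.993) and -1.57 ± 0.319 for Npy (0.891). Over all kept cells, with 0.0% of 14597 genes called by edgeR, 845 at an unadjusted p under 0.05 and 32 by DESeq2, it was -1.18 ± 1.70 for Ppy (edgeR adjusted p = 0.924), -1.21 ± 0.985 for Pyy (0.877) and -1.06 ± 0.590 for Npy (0.844).

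The whole-islet sums show what these changes rest on. Over all kept cells the Ppy level was 1843 and 9185 CPM in HC mice 1 and 2, and 937, 15172 and 16419 CPM in chow mice 1, 2 and 3. The Pyy level was 2947 and 4115 CPM in the HC mice, and 1937, 10125 and 8929 CPM in the chow mice. The Npy level was 38.2 and 112 CPM in the HC mice, and 158, 120 and 149 CPM in the chow mice. For Ppy and Pyy the lowest mouse of all was chow mouse 1, so the diets overlapped, and for Npy both HC mice lay below the chow mice. In such a sum, fewer cells of a type and less RNA per cell cannot be told apart.

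**Figure D5:**
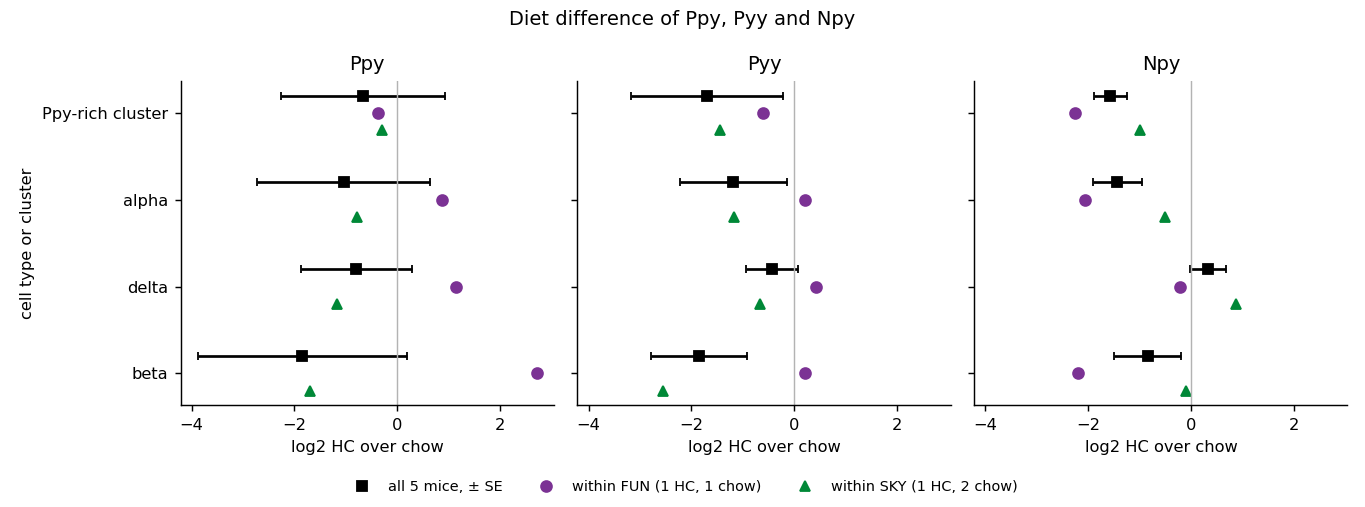
Log2 of HC over chow for Ppy, Pyy and Npy in 4 cell types or clusters. Black squares are the edgeR estimates over all 5 mice with their SE, purple circles the difference within FUN libraries and green triangles that within SKY libraries, neither of which has a test. Ppy and Pyy lie on opposite sides of 0 in FUN and SKY in alpha, delta and beta cells, and Npy lies below 0 in both in all but delta cells.

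Within prefixes, the direction for Ppy and Pyy depended on the libraries. Within SKY (1 HC and 2 chow mice) the log2 difference of HC over chow in alpha cells was -0.77 for Ppy and -1.16 for Pyy, and within FUN (1 HC and 1 chow mouse) it was 0.86 and 0.21. In delta cells it was -1.17 for Ppy and -0.66 for Pyy within SKY, and 1.15 and 0.43 within FUN. In beta cells it was -1.69 and -2.55 within SKY, and 2.71 and 0.22 within FUN. For Npy in beta cells the difference was -0.11 within SKY and -2.20 within FUN, and in the Ppy-rich cluster it was -0.99 and -2.26.

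Calls appeared when single mice or terms were changed. Npy in beta cells was lower in HC at a log2 change of -1.98 without HC mouse 2 (edgeR adjusted p = 3.52e-06, 0.142% of genes called) and at -1.94 with HC mouse 2 counted as chow by its title (1.10e-05, 0.05%). Each leaves HC mouse 1 as the only HC mouse, assumed to vary like the chow mice. Over all kept cells Npy was likewise lower without HC mouse 2, at -2.15 (edgeR adjusted p = 0.000198, 0.181%). Pyy in beta cells was lower without chow mouse 1, at -2.29 (1.01e-05, 0.043%). Its level was then 59.5 and 35.0 CPM in the HC mice, and 201 and 203 CPM in chow mice 2 and 3. Beta cells had the lowest median Pyy level of the 13 types and clusters, at 59.5 CPM. Over all kept cells Pyy was likewise 2947 and 4115 CPM in HC mice 1 and 2, and 10125 and 8929 CPM in chow mice 2 and 3. The part of free RNA in the beta cell difference was not tested.

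In the Ppy-rich cluster the member called depended on the term. With age as a term, Ppy was higher in HC at a log2 change of 1.49 (edgeR adjusted p = 1.94e-06, 0.338% of genes called). With prefix as a term, Pyy was lower at -1.07 (0.000104) and Npy at -1.47 (0.00171), with 0.107% of genes called. Each of these fits adds a term to diet over 5 mice, and such small p-values cannot measure the spread between mice. The Ppy-high cells of the cluster ran from 3 of 94 in HC mouse 1 to 124 of 198 in chow mouse 3. Npy was also lower without a filter on low counts (-1.59, 0.00141, 0.0136%), without HC mouse 2 (-2.47, 0.00790, 0.0698%) and with equal cells per mouse (-3.41, 0.0240, 0.0397%). Npy had 8 and 22 UMIs in this cluster in HC mice 1 and 2, and 26, 110 and 60 in chow mice 1, 2 and 3, and 3.69% of its cells had an Npy UMI at 2000 UMIs, against 3.49% of endothelial cells.

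Prefix itself was fitted beside diet after the data were seen. In the Ppy-rich cluster, Ppy was higher in SKY than in FUN libraries by 3.64 ± 0.236 on the log2 scale (edgeR adjusted p = 1.64e-49). Pyy was higher by 3.16 ± 0.208 (5.05e-48), with 4.19% of 5614 genes called. With 3 SKY and 2 FUN mice, p-values this small cannot measure the spread between mice. The Ppy-high cells of the cluster were 3 of 94 and 4 of 38 in the FUN mice, and 48 of 111, 118 of 210 and 124 of 198 in the SKY mice. The part of this mix of cells in the difference was not tested. In alpha cells the prefix difference was 3.44 ± 0.660 for Ppy and 1.89 ± 0.442 for Pyy (edgeR adjusted p = 0.652 for each), with 0.828% of 10875 genes called. In delta cells it was 1.02 ± 1.37 for Ppy and 0.75 ± 0.439 for Pyy, and in beta cells it was 0.47 ± 0.709 for Npy, none of them called. Prefix, age and diet cannot be told apart in 1 model of these 5 mice.

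The difference of the diet change between types was tested as an interaction in edgeR. Npy changed by 1.77 ± 0.464 more on the log2 scale in delta than in alpha cells (adjusted p = 0.129), and by 0.53 ± 0.393 more in beta than in alpha cells (adjusted p = 0.901). For Ppy and Pyy the differences between delta and alpha cells were 0.32 ± 1.76 and 0.61 ± 0.662 (adjusted p = 0.997 and 0.963).

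Few or no UMIs of the receptors for the family were found, and how well these 3 prime libraries capture them was not tested. Over all kept cells, 47 of 154267503 UMIs were Npy1r, the receptor through which neuropeptide Y constricts vessels, with a mean of 2.82 CPM ± 3.14 in endothelial cells (SD, n = 5) and 0.225 CPM ± 0.395 in alpha cells. Npy2r, Npy4r, Npy5r and Npy6r had 0 UMIs each, which allows up to 0.0194 CPM over all kept cells for counting error alone. For any single type, with fewer UMIs, the limit is higher. None of the 5 receptors had enough UMIs for the diet test in beta, alpha or delta cells or the Ppy-rich cluster.

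None of the processing genes, transcription factors or other islet neuropeptides tested passed the diet test in these 4 populations. Of 9 genes for processing and degradation, 7 were tested in each, with a median log2 change of -0.12 in beta, -0.18 in alpha, 0.04 in delta cells and -0.04 in the Ppy-rich cluster, where the median of all genes lay between -0.0084 and -0.0014. Pam, the amidating enzyme, stood at 103 CPM ± 12.2 in beta cells and 521 CPM ± 46.7 in alpha cells (SD, n = 5), and its log2 change was -0.21 ± 0.0982 and -0.27 ± 0.115. Pcsk2, a prohormone convertase, had 2720 CPM ± 164 in alpha and 1982 CPM ± 166 in delta cells. Dpp4, whose enzyme trims peptide YY and neuropeptide Y, had a log2 change of 0.80 ± 0.432 in the Ppy-rich cluster (edgeR adjusted p = 0.988).

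Of 15 transcription factors, 11 were tested in beta, 15 in alpha, 11 in delta cells and 13 in the Ppy-rich cluster, with medians of -0.08, 0.04, 0.08 and 0.02. Etv1, an ETS factor, had a log2 change of -0.74 ± 0.236 in beta cells (edgeR adjusted p = 0.822), where its level was 3.02 CPM ± 1.06, against 269 CPM ± 20.1 in alpha and 188 CPM ± 13.6 in delta cells. Of 19 other neuropeptides, 3 were tested in beta, 6 in alpha, 3 in delta cells and 3 in the Ppy-rich cluster, with medians of -0.05, -0.43, 0.15 and 0.14. Cartpt, the precursor of an appetite-lowering peptide, had a log2 change of -1.98 ± 0.571 in alpha cells (edgeR adjusted p = 0.616) at a level of 3.65 CPM ± 3.28.

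The genes most like each member were ranked by Pearson's r of log2(CPM + 1) over 65 sums (13 types and clusters in 5 mice) among 6972 genes. Sums of 1 mouse share a library and its free RNA, and r is a description. Pyy was the gene most like Ppy, and Ppy the gene most like Pyy, with r = 0.89. Next to Ppy came Eef1a2, a translation elongation factor, at 0.71, then Folr1, Calb1 and Ctxn2 at 0.71 to 0.70. Next to Pyy came Eef1a2 and Etv1 at 0.85, and Dbpht2 and Calb1 at 0.82. Npy was most like Tubb3, a neuronal tubulin, at 0.82, followed by Cntfr at 0.68, Fkbp1b at 0.68, Cntn1 at 0.65 and Mt3 at 0.62. Npy had an r of -0.08 with both Ppy and Pyy.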

How the data were processed

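Islet cells of 5 mice were profiled with 10x 3 prime libraries, 1 a mouse. The deposited matrices hold raw UMI counts per gene and barcode; the authors made them with Cell Ranger 4.0.0 on mm10, per the submitters' processing notes, and the annotation release is not given in the sources used here. Symbols came from a GRCm38 annotation. The members, gene lists and tests were chosen with earlier results of these data known.

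Barcodes with at least 1000 UMIs, 500 genes and at most 15% mitochondrial UMIs were kept, between 3656 and 5122 a mouse, with a median of 5147 to 6958.5 UMIs. Scrublet in scanpy 1.11.5 called 12 of 22758 cells doublets (0.0527%), so it did not work here and droplets with RNA of several types remain. Cells were clustered over 2000 variable genes and 30 components (Leiden, igraph 0.11.9, resolution 1, 15 neighbours). Npy was among the variable genes, and Ppy and Pyy were not. A cluster was named with at least 3 markers of a type among its 10 leading genes and 2 times those of any other type, provided that no hormone of another type reached 50% of its highest cluster level. This naming rule was set with the clusters in view.

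UMIs were summed per mouse and type (at least 20 cells a mouse) and tested with edgeR 4.0.16 (TMM, filterByExpr, robust quasi-likelihood fit) in R 4.3.3, with DESeq2 1.42.0 as an alternative. The SE beside an edgeR log2 change is the absolute change divided by the square root of the test's F statistic. It was not estimated separately. The fit was tested on simulated data. Shares were compared by exact permutation over the 10 splits of the mice. The bands of the Ppy share, the comparisons of SKY with FUN and the tests of thinned shares were added after the data were seen. Cells were thinned to 2000 UMIs for shares with a UMI, leaving out shallower cells. Binomial intervals (95%, Clopper-Pearson) and the limit for a count of 0 (3 counts) cover counting error only. Genes named beside the members were up to 4 of smallest p in each list and type, and the 5 most like each member. The alternatives were other tools, filters, clusterings and thresholds, prefix or age as a term, each mouse left out and the title's grouping of HC mouse 2.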

Additional observations from a re-analysis of the deposited data

How the results depend on the processing

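No paired analysis was possible because the replicate numbers were given in accession order and pair no mice. Of the alternatives for the diet changes of the 3 members in 4 populations and over all cells, 206 kept their direction and side of the threshold, 9 passed the threshold newly in the same direction, 21 changed direction, 1 of them past the threshold, and 7 differences within a prefix, which have no test, moved. No member passed in the main comparison, so no call was lost, and the causes of the changes below were not tested. Depth limits Npy outside beta cells most, with 6 to 23 UMIs a mouse in alpha cells.

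With age as a term the log2 change of HC over chow turned positive for Ppy in beta (1.61), alpha (1.65) and delta cells (0.24), the Ppy-rich cluster (1.49, past the threshold) and all cells (1.60). It also did so for Pyy in alpha (0.37) and delta cells (0.19), the Ppy-rich cluster (0.51) and all cells (0.30). Within FUN it was positive for Ppy in beta (2.71), alpha (0.86), delta (1.15) and all cells (0.88), positive for Pyy in beta (0.22), alpha (0.21), delta (0.43) and all cells (0.50), and negative for Npy in delta cells (-0.21). Npy moved to -2.20 within FUN and -0.11 within SKY in beta cells, to -2.07 and -0.50 in alpha cells, to -2.26 and -0.99 in the Ppy-rich cluster, and to -2.15 within FUN over all cells. At resolution 0.5 Npy in delta cells was -0.97. Alpha cells and the Ppy-rich cluster merged there, so their changes could not be fitted.

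Newly past the threshold in the same direction were Npy in beta cells by the title's grouping (-1.94), Pyy in the Ppy-rich cluster with prefix as a term (-1.07), and Npy there with prefix as a term (-1.47), without a filter (-1.59) and with equal cells (-3.41). Leaving out each mouse gave -2.29 to -1.55 for Pyy and -1.98 to -0.21 for Npy in beta cells, -1.23 to 0.38 for Ppy in delta cells, -3.48 to 0.22 for Ppy and -2.47 to -1.04 for Npy in the Ppy-rich cluster, and -2.15 to -0.45 for Npy over all cells. The changes past the threshold were Pyy in beta cells without chow mouse 1, and Npy without HC mouse 2 in beta cells, the Ppy-rich cluster and all cells. Delta cell Ppy changed sign without chow mouse 2, and Ppy in the Ppy-rich cluster without HC mouse 1.

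The 4 genes called in beta cells became 9 with DESeq2, 46 without a filter, 10 with prefix and 7 with age as a term, 7 with Npy left out of the clustering, 11 with equal cells, and 0 to 17 without 1 mouse. The 6 in alpha cells became 40 without a filter, 30 by the title, 1 with equal cells and 1 to 13 without 1 mouse. The 0 in delta cells became 7 without a filter, 1 by the title, 3 with prefix, 3 with age, 1 with Npy left out of the clustering, 2 without cells of another hormone, 1 with equal cells and 0 to 4 without 1 mouse. The 0 in the Ppy-rich cluster became 2 without a filter, 1 by the title, 6 with prefix, 19 with age, 1 without the highest doublet scores, 1 with equal cells and 0 to 5 without 1 mouse.

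The difference in the share of cells in Ppy-rich clusters turned to 5.60 points at resolution 0.5 (exact p = 0.1), where these clusters include the alpha cells, and to 0.236 points with Npy left out of the clustering. The share of Ppy-high cells kept its direction under all alternatives run. The Npy level of the Ppy-rich cluster was 100.97 CPM ± 156 with Npy left out of the clustering. At 1000 and 4000 UMIs, Ppy and Pyy were found together in 0.829% and 4.78% of beta, 21.5% and 39.3% of alpha and 30.01% and 38.5% of delta cells, and in 51.5% and 60.4% of the Ppy-rich cluster.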

Other observations

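Npy was also found in single cells outside the beta clusters. In all, 14 kept cells had at least 0.5% of their UMIs from Npy, of which 9 were beta cells, 4 lay in the Fabp7+Sostdc1 cluster and 1 in the Ctrb1+Try5 cluster. The highest was a beta cell of chow mouse 3 with 126 Npy UMIs of 3082 (4.09%) and 17.0% of its UMIs from insulin. The Fabp7+Sostdc1 cluster, with Fabp7, Sostdc1 and Cryab among its leading genes, held 159 cells and was not named. Its Npy level was 42.4 and 1859 CPM in HC mice 1 and 2, and 71.4, 284 and 4696 CPM in chow mice 1, 2 and 3. These levels rest on few cells: 431 of the 525 Npy UMIs of chow mouse 3 and 129 of the 290 of HC mouse 2 came from 1 cell each.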
